A study of Mus musculus with 6 samples.

Results

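The BCL2 family is the set of proteins that decides whether a cell opens its outer mitochondrial membrane and dies by apoptosis. The transcripts of 10 family members were followed here, and they were found by their symbols among the 26898 genes of the expression table: Bcl2, Bcl2l1, Mcl1, Bax, Bak1, Bid, Bcl2l11, Bmf, Bbc3 and Pmaip1. The question was how the levels of these genes differed when Kansl1, which encodes a scaffold subunit of the chromatin-modifying NSL complex, was deleted in primary mouse embryonic fibroblasts (MEFs, connective tissue cells grown directly from mid-gestation embryos). The WT group was Kansl1fl/fl and the KO group was Kansl1fl/fl/CAG-cre, both of strain C57BL/6 and both at passage 3 in medium with 10% serum per the labels (more serum is stated for MEFs in the methods of the study). Cells of both groups were given 1 μM tamoxifen for 48 h, and only KO cells carried the tamoxifen-dependent Cre recombinase, expressed from the broadly active CAG promoter, that excises the floxed sequence. Each group had 3 samples, WT 4, 5 and 8 and KO 3, 7 and 10, and the methods of the study give 3 animals per group. No Cre-positive cells without floxed alleles were analysed here, so loss of Kansl1 and presence of active Cre cannot be told apart.

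Proteins of the family fall into 3 kinds. The anti-apoptotic proteins BCL2, BCL-XL (from Bcl2l1) and MCL1 hold their pro-apoptotic relatives in check. The effectors BAX and BAK (from Bak1) assemble into the pores that release cytochrome c. The BH3-only proteins BID, BIM (from Bcl2l11), BMF, PUMA (from Bbc3) and NOXA (from Pmaip1) sense stress, and they either block the anti-apoptotic proteins or activate the effectors directly. Much of this regulation is exerted on the proteins, through cleavage of BID, phosphorylation, and the rapid turnover of MCL1, and is not visible in transcript levels. Fibroblasts carry both effectors, and in them Bax, Bbc3 and Pmaip1 are well known targets of the transcription factor p53.

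Between 17655495 and 27718259 reads per sample were recovered from the table, KO 3 having the fewest and KO 7 the most. Levels are given in TPM, a unit that divides reads by gene length and brings each sample to the same total. Kansl1 itself was at 28.5, 26.7 and 24.4 TPM in WT 4, 5 and 8 against 13.7, 15.8 and 14.4 TPM in KO 3, 7 and 10. Its mean was 26.6 ± 2.06 TPM in WT (mean ± SD, n = 3) and 14.6 ± 1.04 TPM in KO, or 55.1% of WT, a fall that passed both thresholds given below (log2 fold change -0.82, adjusted p = 0.000859 by limma). The 12 fibroblast markers were all expressed, their summed level ranging from 10342 to 14934 TPM in WT and from 11085 to 14552 TPM in KO, with WT 4 the lowest. The 10 macrophage markers summed to 38.8 to 44.4 TPM in WT and to 79.7, 90.5 and 159.8 TPM in KO 3, 7 and 10. Of the 8 tested, 6 were above all WT samples in all KO samples, against 13.3% of all tested genes. Lyz2 was called higher (22.5 to 73.6 TPM, adjusted p = 0.00142 by limma), against 1.64% of all tested genes. Cd68 (5.18 to 10.5 TPM) and, named after their values were seen, Csf1r (1.41 to 3.39), Tyrobp (1.49 to 4.41) and Fcer1g (2.22 to 4.75) were higher at an adjusted p under 0.05 with the same fold, against 4.69% of all tested genes. Adgre1 (0.752 to 2.05 TPM), named in the same way, met these limits too. It passed the filter of 1 TPM on its KO mean alone, so neither this nor its place among the 6 adds support. Reads per sample were few for Tyrobp (7 to 37), Fcer1g (12 to 56) and Adgre1 (9 to 70). The groups overlapped for Cd14 (6.04 to 6.46 TPM, adjusted p = 0.724 by limma) and Mpeg1 (2.29 to 4.44 TPM, adjusted p = 0.0723 by limma), named in the same way. Ptprc (0.0890 to 0.153 TPM) and Itgam (0.0922 to 0.183 TPM), also named after their values were seen, were below the filter and not tested. In bulk RNA, more cells of a type and more RNA per cell cannot be told apart, and the part of these markers in the results on the BCL2 family was not tested. The other marker lists had far smaller sums than the fibroblast list. Endothelial markers summed to 2.28 to 5.57 TPM in WT and 3.13 to 4.70 in KO, epithelial markers to 40.4 to 45.8 and 49.4 to 66.5, neural markers to 57.3 to 77.7 and 68.7 to 97.6, muscle markers to 80.4 to 107.9 and 70.6 to 86.5, and erythroid markers to 0.346 to 0.837 and 0.606 to 1.01. Both tested epithelial genes, Krt8 and Krt18, had every KO sample above every WT sample, against 13.3% of all tested genes. Krt8 (1.45 to 2.70 TPM, adjusted p = 0.0446 by limma) was higher at an adjusted p under 0.05 with the same fold, against 4.69%. The part of these markers was not tested either.

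No member of the family passed the thresholds of the study, an adjusted p under 0.005 and a log2 fold change beyond 0.5 in size. By limma on log2(TPM + 1), 0 of the 10 members were called, against 10.7% of the 14799 genes tested (1.64% called higher and 9.03% called lower). At an unadjusted p under 0.05 there were 5 members, against 39.4% of all tested genes, which is close to the background. The members below that level were Bax, Bid, Bcl2l11 and Bbc3, with higher KO means, and Bak1, with a lower KO mean. With the adjusted threshold relaxed to 0.05, Bid and Bbc3 passed as higher, against 4.69% of tested genes, and Bak1 passed as lower, against 16.6%. The voom method on recovered reads called 2 members, Bid and Bbc3, at the thresholds of the study. For 4 members, Bax, Bid, Bcl2l11 and Bbc3, every KO sample lay above every WT sample, a pattern shown by 13.3% of tested genes. For 1 member, Bak1, every KO sample lay below every WT sample, as for 29.9% of tested genes, and the groups of the other 5 overlapped. The median log2 fold change of the members was 0.21, beside -0.07 over all tested genes. All 10 passed the filter on low expression, for which the mean of WT or KO had to reach 1 TPM, although Bmf passed it on its WT mean alone.

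**Figure D1:**
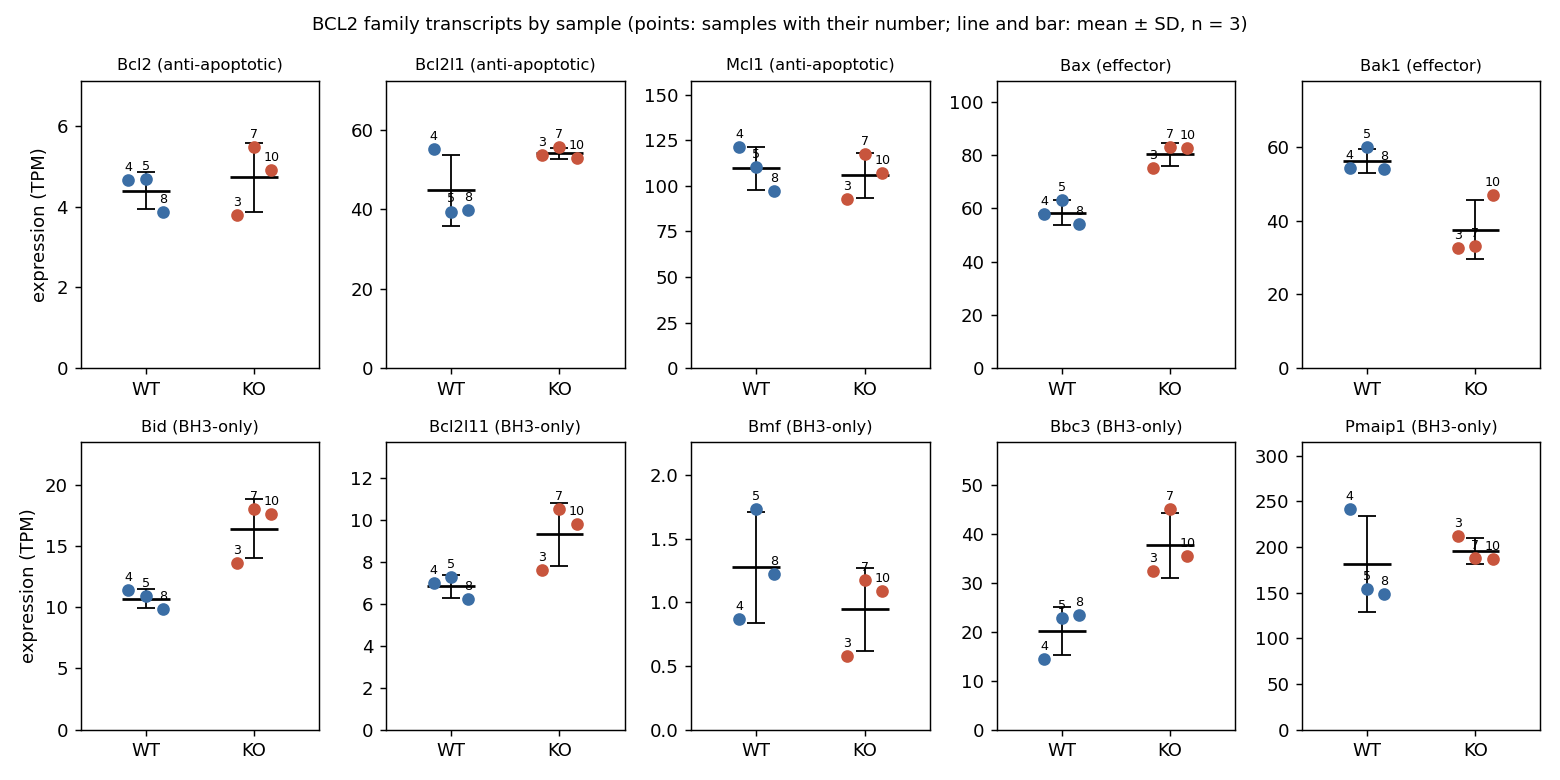
Expression of the 10 members in every sample, in TPM on linear axes from 0, each point a sample with its number (WT blue, KO red) and the line and bar the mean ± SD of 3 samples. The KO points lie above the WT points for Bax, Bid, Bcl2l11 and Bbc3, narrowly so for Bcl2l11, and below them for Bak1.

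The levels of the members differed by more than 2 orders of magnitude. Among WT cells Pmaip1 had the highest mean at 181.5 TPM, followed by Mcl1 at 109.5 TPM. Bax, Bak1 and Bcl2l1 came next at 58.4, 56.1 and 44.8 TPM, and neighbours among these 3 overlapped in their samples. Bbc3 (20.2 TPM), Bid (10.7 TPM), Bcl2l11 (6.84 TPM), Bcl2 (4.40 TPM) and Bmf (1.28 TPM) followed, each separate from its neighbour in the WT samples. In KO cells the order was Pmaip1, Mcl1, Bax, Bcl2l1, Bbc3, Bak1, Bid, Bcl2l11, Bcl2 and Bmf, and there only Bbc3 (37.8 TPM) and Bak1 (37.6 TPM) overlapped with a neighbour. Bak1 thus moved from the fourth to the sixth place and Bbc3 from the sixth to the fifth.

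Among the anti-apoptotic genes the groups overlapped throughout. Mcl1 (chr3:95658788-95663176, plus strand, mm10), whose short-lived product restrains BAK and BIM, was the most abundant of them, with 121.1, 110.2 and 97.3 TPM in WT 4, 5 and 8 against 92.8, 117.4 and 106.8 TPM in KO 3, 7 and 10. The log2 fold change was -0.05 (SE 0.12, 95% confidence interval -0.32 to 0.22, adjusted p = 0.782 by limma), and its sign turned under another scaling of the samples (0.04), without WT 4 (0.02) and without KO 3 (0.04). Its direction is therefore unresolved.

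Bcl2l1 (chr2:152780668-152831728, minus strand, mm10), which encodes the long-lived protein BCL-XL, stood at 55.2, 39.4 and 39.9 TPM in WT against 53.8, 55.6 and 52.8 TPM in KO. WT 4 lay within the KO range while the other WT samples lay under it. Between groups this gave a log2 fold change of 0.28 (SE 0.13, interval -0.02 to 0.58, adjusted p = 0.153 by limma), and without WT 4 it was 0.44 with an adjusted p of 0.0135, still short of both thresholds. Bcl2 (chr1:106538178-106714274, minus strand, mm10), the founding gene of the family, was expressed at 4.66, 4.67 and 3.86 TPM in WT against 3.80, 5.47 and 4.89 TPM in KO, from 253 to 485 reads per sample. Its log2 fold change was 0.08 (SE 0.16, interval -0.27 to 0.42, adjusted p = 0.748), and it turned to -0.02 without KO 7. An antisense gene model, D630008O14Rik, shares 558 bp of its exons. Together the 3 anti-apoptotic genes summed to 158.7 ± 20.3 TPM in WT and 164.4 ± 14.0 TPM in KO (SD, n = 3 each).

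The 2 effectors differed between groups in opposite directions, with no overlap of samples, although neither passed both thresholds. Bax (chr7:45461697-45466898, minus strand, mm10), whose product moves from the cytosol to mitochondria when activated, stood at 57.9, 63.2 and 54.0 TPM in WT against 75.2, 82.9 and 82.7 TPM in KO. Every KO sample exceeded every WT sample, and the KO mean of 80.3 ± 4.40 TPM was 1.38 times the WT mean of 58.4 ± 4.60 TPM (SD, n = 3 each). Its log2 fold change was 0.45 (SE 0.10, interval 0.23 to 0.68) with an adjusted p of 0.00902 by limma, which missed both thresholds. With median-of-ratios scaling applied to the TPM values it passed them (0.54, adjusted p = 0.000816 by limma). A same-strand gene model, Gm45808, shares 192 bp of the exons of Bax.

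Bak1 (chr17:27019810-27029009, minus strand, mm10), whose product sits in the outer mitochondrial membrane of healthy cells, stood at 54.3, 59.9 and 54.1 TPM in WT against 32.7, 33.2 and 46.9 TPM in KO. KO 10 lay between the WT samples and the other 2 KO samples, and no KO sample reached the WT range. The KO mean of 37.6 ± 8.05 TPM was 67.0% of the WT mean of 56.1 ± 3.29 TPM, with a log2 fold change of -0.58 (SE 0.14, interval -0.90 to -0.26, adjusted p = 0.0143 by limma). Without KO 10 the difference passed both thresholds (-0.75, adjusted p = 0.00374), as it did when testing was limited to genes reaching a group mean of 10 TPM (adjusted p = 0.000527). Even the relaxed call at 0.05 was lost without KO 3 (-0.496, adjusted p = 0.0507 by limma). With median-of-ratios scaling it was lost on the fold (-0.497, adjusted p = 0.0297 by limma). KO 10 also had the highest sum of macrophage markers, 159.8 TPM, and the part of this in the Bak1 level was not tested. The antisense gene Ggnbp1 shares 437 bp of exon with Bak1, and it was expressed at 0.121 TPM in WT and 0.196 TPM in KO (5 to 16 reads per sample). Its part in the Bak1 level was not tested.

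With Bax higher and Bak1 lower in KO samples, their sum was 114.5 ± 7.72 TPM in WT and 117.9 ± 11.0 TPM in KO, and overlapped between groups. The ratio of Bax to Bak1 within a sample, which does not depend on how samples are scaled to each other, was 1.07, 1.06 and 0.998 in WT 4, 5 and 8 and 2.30, 2.50 and 1.77 in KO 3, 7 and 10. Its mean was 1.04 ± 0.0369 in WT and 2.19 ± 0.379 in KO, 2.10 times higher, and between 1.96 and 2.31 times higher when any sample was left out. The ratio was formed after both genes had been seen to differ and was not tested.

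The promoters of the effectors are shown to let their letter content be compared. They run from 250 bases before to 50 after the first start site in RefSeq (GRCm38.p6), 5′ to 3′ on the strand of the gene, with capitals marking the GC box (GGGCGG or its reverse complement), the recognition sequence of SP1-type factors. Bax is at chr7:45466849-45467148 and Bak1 at chr17:27028578-27028877, both on the minus strand. The RefSeq starts of Bak1 and of Bbc3 and Bid, shown further on, lie inside the bounds of the GENCODE genes given with them.
Bax: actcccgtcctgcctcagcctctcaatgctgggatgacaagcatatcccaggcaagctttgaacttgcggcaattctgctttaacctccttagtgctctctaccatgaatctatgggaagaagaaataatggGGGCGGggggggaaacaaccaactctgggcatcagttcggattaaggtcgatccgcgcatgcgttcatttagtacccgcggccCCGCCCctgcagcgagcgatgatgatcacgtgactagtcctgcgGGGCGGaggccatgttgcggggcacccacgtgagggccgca
Bak1: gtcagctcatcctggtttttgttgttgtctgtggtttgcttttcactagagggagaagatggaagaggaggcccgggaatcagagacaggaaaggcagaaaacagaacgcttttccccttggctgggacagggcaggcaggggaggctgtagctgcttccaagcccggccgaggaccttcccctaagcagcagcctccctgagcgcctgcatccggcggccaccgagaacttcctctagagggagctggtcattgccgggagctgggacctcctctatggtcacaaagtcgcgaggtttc
The Bax window holds 19 CG pairs and 3 GC boxes, the Bak1 window 11 CG pairs and no GC box, and the median over the 32851 promoter windows of the reference is 7 CG pairs. GC boxes were found in 35.7% of these windows. The Bax window also holds the palindromic E-box CACGTG at 2 places, 9 bases before and 35 bases after the start, a motif present in 7.15% of windows and in none of the other members' windows examined. A p53 half-site, searched as the standard decamer with all of its letters matched on either strand, begins 201 bases before the Bax start and occurs in 8.36% of windows. None was found in the other members' windows examined, that of Bbc3 included. These letter matches are descriptions and no measure of binding.

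**Figure D2:**
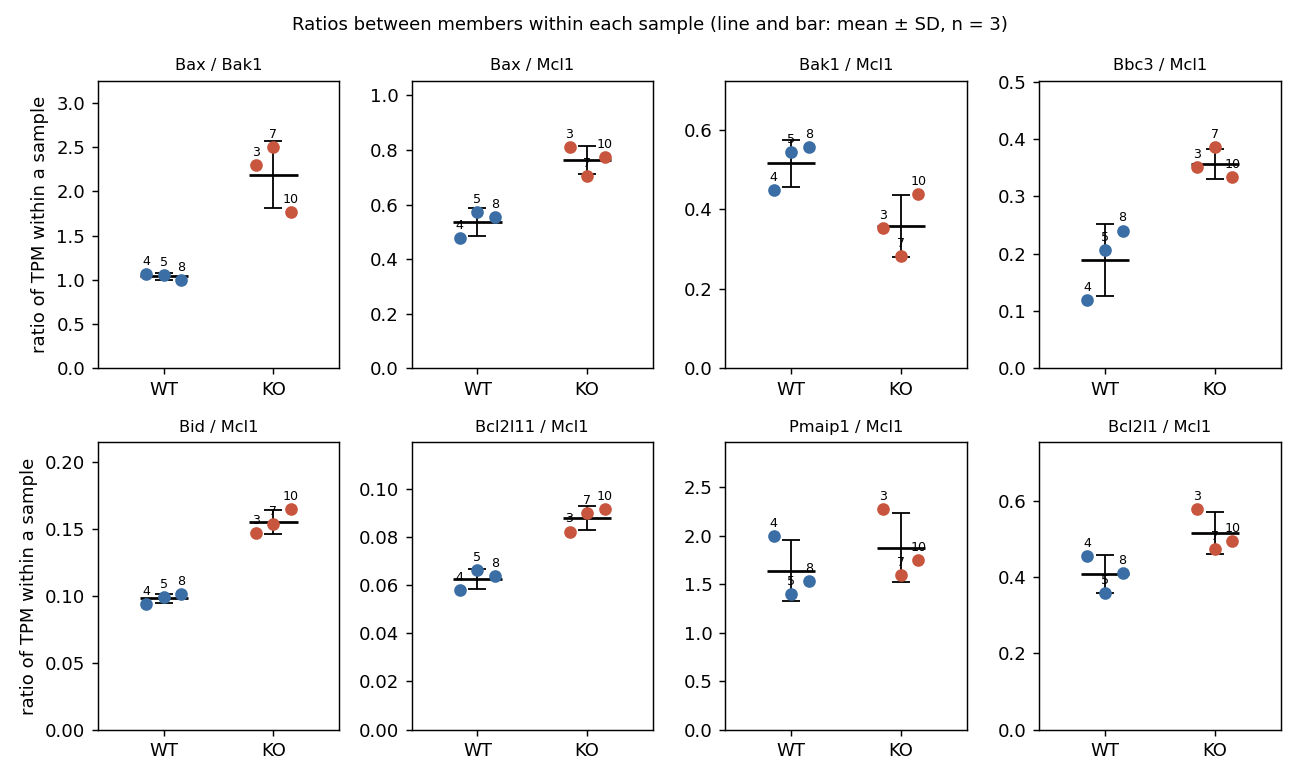
Ratios of TPM between members within each sample, on linear axes from 0, with a point per sample (WT blue, KO red) and the mean ± SD of 3 samples. For Bax over Bak1 the KO points lie between 1.77 and 2.50 and the WT points between 0.998 and 1.07, whereas for Pmaip1 over Mcl1 the groups overlap.

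Among the BH3-only genes, 3 of 5 had all KO samples above all WT samples, against 13.3% of all tested genes. Bbc3 (chr7:16308393-16318205, plus strand, mm10) encodes PUMA, which binds every anti-apoptotic member and is a main mediator of p53-dependent death. It stood at 14.5, 22.8 and 23.4 TPM in WT against 32.6, 45.2 and 35.5 TPM in KO, with WT 4 the lowest sample and KO 7 the highest. The KO mean of 37.8 ± 6.63 TPM was 1.87 times the WT mean of 20.2 ± 4.99 TPM, and the log2 fold change of 0.89 (SE 0.19, interval 0.46 to 1.31) was the largest of the 10 members in size. Its adjusted p of 0.00771 by limma missed the threshold of 0.005. It passed with voom (0.94, adjusted p = 0.00332) and among genes of at least 10 TPM (adjusted p = 9.02e-06), and it was 0.67 without WT 4 (adjusted p = 0.00971).

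Bid (chr6:120891930-120916853, minus strand, mm10) encodes the protein that caspase-8 cleaves to carry a death receptor signal to mitochondria. It stood at 11.4, 10.9 and 9.83 TPM in WT against 13.6, 18.1 and 17.6 TPM in KO, where KO 3 was the lowest KO sample but still above all WT samples. The KO mean of 16.4 ± 2.43 TPM was 1.54 times the WT mean of 10.7 ± 0.786 TPM (log2 fold change 0.57, SE 0.13, interval 0.27 to 0.86, adjusted p = 0.0116 by limma). Of all members Bid passed the thresholds under the most alternatives, namely voom (0.64, adjusted p = 0.000413), median-of-ratios scaling (0.65, adjusted p = 0.000739), removal of the 2 most abundant RNAs (0.60, adjusted p = 0.00136) and the filter at 10 TPM (adjusted p = 0.00199). Its relaxed call at 0.05 was lost without KO 10 (0.516, adjusted p = 0.0537 by limma). Without KO 7 it was lost on the fold (0.499, adjusted p = 0.0401 by limma). Bid shares 628 bp of exon, 17.7% of its own, with Bcl2l13 on the other strand, and whether the counting used strand is not given in the sources used here. Bcl2l13, a more distant relative, was at 16.5 ± 1.04 TPM in WT and 13.9 ± 2.03 TPM in KO (log2 fold change -0.24, adjusted p = 0.199), a difference in the other direction that did not pass the test.

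Bcl2l11 (chr2:128126038-128162547, plus strand, mm10) encodes BIM, which activates the effectors and is controlled by growth factor signals and FOXO factors. Its level was 7.01, 7.29 and 6.21 TPM in WT against 7.64, 10.5 and 9.79 TPM in KO, with KO 3 close above the highest WT sample. The KO mean was 1.36 times the WT mean, with a log2 fold change of 0.39 (SE 0.14, interval 0.07 to 0.71, adjusted p = 0.0682 by limma). Pmaip1 encodes NOXA, which binds mainly MCL1, and it was the most abundant member in every sample. It stood at 241.9, 153.7 and 148.9 TPM in WT against 211.6, 187.7 and 187.0 TPM in KO, so that WT 4 exceeded all KO samples and the other WT samples lay under them. The fitted log2 fold change was 0.14 (SE 0.17, interval -0.25 to 0.53, adjusted p = 0.579), and without WT 4 it was 0.37 (adjusted p = 0.0288). Bmf (chr2:118528757-118549687, minus strand, mm10), which encodes a BH3-only protein tied to the cytoskeleton, was scarce at 0.869, 1.74 and 1.22 TPM in WT against 0.576, 1.18 and 1.09 TPM in KO, from 22 to 80 reads. No difference was detected for Bmf (log2 fold change -0.22, SE 0.23, interval -0.73 to 0.29, adjusted p = 0.501 by limma).

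WT 4 was thus the highest WT sample for Pmaip1, Bcl2l1, Mcl1 and Bid and the lowest for Bbc3 and Bmf. Summed over the 5 BH3-only genes the level was 220.5 ± 47.8 TPM in WT and 259.9 ± 7.86 TPM in KO, in which Pmaip1 outweighed the others. Leaving Pmaip1 out, a choice made after its values were seen, the sum was 33.7, 42.7 and 40.7 TPM in WT against 54.4, 75.0 and 64.0 TPM in KO, with no overlap. All 10 members together summed to 493.8 ± 67.3 TPM in WT and 542.2 ± 16.6 TPM in KO.

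The promoters of the 3 BH3-only genes whose groups did not overlap are given in the same way, Bbc3 at chr7:16309333-16309632 and Bcl2l11 at chr2:128125788-128126087 on the plus strand and Bid at chr6:120916775-120917074 on the minus strand.
Bbc3: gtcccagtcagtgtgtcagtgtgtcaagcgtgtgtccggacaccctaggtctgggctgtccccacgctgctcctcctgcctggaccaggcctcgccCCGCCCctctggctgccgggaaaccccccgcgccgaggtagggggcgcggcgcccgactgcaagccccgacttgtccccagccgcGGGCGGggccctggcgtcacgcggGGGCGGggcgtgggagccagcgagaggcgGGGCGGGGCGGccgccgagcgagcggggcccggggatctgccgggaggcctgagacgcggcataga
Bid: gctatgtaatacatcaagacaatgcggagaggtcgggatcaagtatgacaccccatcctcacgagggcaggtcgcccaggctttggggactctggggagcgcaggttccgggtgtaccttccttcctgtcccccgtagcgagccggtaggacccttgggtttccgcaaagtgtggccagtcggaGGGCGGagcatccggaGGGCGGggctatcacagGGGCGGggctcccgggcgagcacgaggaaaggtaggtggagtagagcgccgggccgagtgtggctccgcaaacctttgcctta
Bcl2l11: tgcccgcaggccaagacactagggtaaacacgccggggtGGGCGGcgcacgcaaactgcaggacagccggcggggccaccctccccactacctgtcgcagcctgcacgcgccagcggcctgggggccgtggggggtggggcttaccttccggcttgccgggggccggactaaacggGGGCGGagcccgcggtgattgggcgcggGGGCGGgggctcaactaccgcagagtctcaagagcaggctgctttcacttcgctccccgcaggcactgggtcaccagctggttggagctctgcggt
These windows hold 34, 22 and 27 CG pairs and 5, 3 and 3 GC boxes in the order printed, and a pair of the boxes of Bbc3 overlaps. Of the 9 members with an entry in the RefSeq table, 7 hold a GC box, all but Bak1 and Bcl2l1. The CCAAT letters occurred in 2 of 9 (Bcl2l11 and Bmf) against 37.4% of all windows. The letters TATAAA occurred in 0 of 9 against 13.6% of all windows. Bcl2l1, Bcl2l11, Bmf and Bbc3 have more than 1 start site in RefSeq, of which the most upstream was used.

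**Figure D3:**
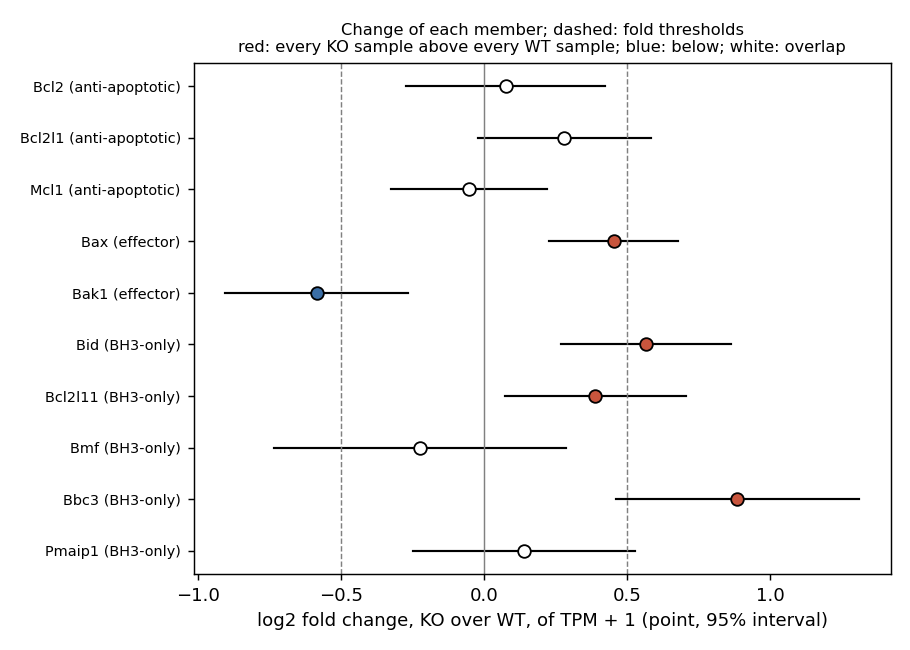
The log2 fold change of each member, KO over WT, of TPM + 1, with 95% confidence intervals from limma and dashed lines at the fold thresholds, the points coloured by whether all KO samples lay above (red) or below (blue) all WT samples. Intervals of Bak1, Bax, Bid, Bcl2l11 and Bbc3 exclude 0, and the interval of Bbc3 spans 0.46 to 1.31.

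The balance of pro-apoptotic to anti-apoptotic transcripts was compared within samples over 13 ratios, given as descriptions without a test. In 7 of them all KO samples exceeded all WT samples, in 2 all KO samples were below, and 4 overlapped. The ratios share members and are not independent of each other. Among the 7 is that of the BH3-only genes without Pmaip1, a choice made after its values were seen. No share over other pairs of genes was computed, so these counts have no background beside them. Against Mcl1, the mean ratio of Bbc3 was 0.189 ± 0.0624 in WT and 0.356 ± 0.0267 in KO, 1.89 times higher. That of Bid was 0.0979 ± 0.00368 and 0.155 ± 0.00911, that of Bcl2l11 0.0626 and 0.0879, and that of Bax 0.536 ± 0.0503 and 0.764 ± 0.0527. Against Bcl2l1 the ratio of Bax overlapped between groups, at 1.34 ± 0.276 in WT and 1.49 ± 0.0843 in KO, 1.11 times higher and 1.01 times without WT 4. The ratio of Bak1 to Mcl1 went the other way, from 0.516 ± 0.0589 in WT to 0.358 ± 0.0782 in KO, and that of Bak1 to Bcl2l1 from 1.29 ± 0.274 to 0.698 ± 0.165. The BH3-only genes without Pmaip1 over the anti-apoptotic genes gave 0.186, 0.277 and 0.288 in WT and 0.362, 0.420 and 0.389 in KO. With Pmaip1 included the same ratio overlapped between groups (1.38 ± 0.129 and 1.59 ± 0.158), and so did both effectors over the anti-apoptotic genes (0.728 ± 0.0946 and 0.719 ± 0.0687). Within the anti-apoptotic genes, Bcl2l1 over Mcl1 was 0.408 ± 0.0488 in WT and 0.516 ± 0.0558 in KO, with no overlap.

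The genes around the family were examined in 7 lists of apoptosis genes written from gene names. The table held 67 of these genes, of which 58 were tested, and 2 passed both thresholds, against 10.7% of all tested genes. Fas, the death receptor gene and a p53 target, rose from 3.40 ± 0.852 TPM in WT to 8.37 ± 1.55 TPM in KO (log2 fold change 1.09, SE 0.18, adjusted p = 0.00233 by limma), though on 50 to 185 reads. Birc5, which encodes survivin, an inhibitor of apoptosis that also serves in cell division, fell from 39.5 ± 5.19 to 23.2 ± 2.84 TPM (log2 fold change -0.74, adjusted p = 0.00309). Fas lost its call without WT 5, WT 8, KO 3 or KO 7, and Birc5 without any sample but WT 8, with log2 fold changes of 0.99 to 1.24 and of -0.84 to -0.65 over the 6 omissions. Both lost it when no filter was applied, and Birc5 also without a variance trend. The 5 tested genes of the inhibitor of apoptosis list had a median of 0.00, with Birc6, a large ubiquitin ligase gene, at 23.2 and 26.7 TPM (adjusted p = 0.257). The only gene of that list at an unadjusted p under 0.05 was Birc5, also its only call by voom. The 7 death receptor genes had a median of 0.02, and 5 were at an unadjusted p under 0.05, 3 higher and 2 lower, against 39.4% of all tested genes. Voom called 3 of them (Fadd, Fas and Tnfrsf10b). The 2 most abundant were the TNF receptor gene Tnfrsf1a at 107.1 and 109.1 TPM (adjusted p = 0.91) and the TRAIL receptor gene Tnfrsf10b at 46.4 and 64.4 TPM (adjusted p = 0.0252). With an adjusted p under 0.05 and the same fold, 4 genes of these lists were higher and 2 lower, against 4.69% and 16.6% of all tested genes. Apart from Fas and Birc5 they were Apaf1 (23.6 to 34.3 TPM, adjusted p = 0.00724), Endog (7.07 to 15.1 TPM, adjusted p = 0.0132), Ddit3 (24.5 to 43.0 TPM, adjusted p = 0.0155) and Fadd (5.25 to 2.94 TPM, adjusted p = 0.00801), which are named after their values were seen. They encode the core of the apoptosome, a mitochondrial nuclease, the stress factor CHOP and the adaptor of death receptors.

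The table held 13 other BCL2 family genes, of which 7 were tested, and 0 were called by limma or by voom. The shares over all tested genes, against which these counts and those that follow stand, were 10.7% called and 39.4% at an unadjusted p under 0.05. At an unadjusted p under 0.05 there was 1 (Bad, named for this, with a log2 fold change of -0.30). Their median log2 fold change was -0.24 and all 7 estimates were under 0. Bok, which encodes an effector-like protein that does not need BH3-only activation, stood at 61.5 ± 4.86 TPM in WT and 52.4 ± 5.05 in KO (log2 fold change -0.23, adjusted p = 0.154). Bnip3l, a mitophagy receptor gene, stood at 43.6 ± 3.50 and 38.6 ± 3.20 TPM (-0.17, adjusted p = 0.264). Genes of the mitochondrial channels and released proteins had a median of 0.02 with 0 of 8 called by limma or voom and 2 at an unadjusted p under 0.05, the voltage-dependent channel genes Vdac1 (267.4 to 261.0 TPM) and Vdac2 (127.5 to 133.3 TPM) having fold changes of -0.03 and 0.06 on the log2 scale. The apoptosome and caspase genes had a median of -0.12 with 0 of 8 called by limma, 2 at an unadjusted p under 0.05 and 1 (Apaf1) by voom. Casp8, whose product cleaves BID, stood at 38.9 TPM in WT and 27.5 TPM in KO (-0.49, adjusted p = 0.0115). The transcription factors known to act on the family had a median of 0.07 with 0 of 12 called by limma, 5 at an unadjusted p under 0.05 and 1 (Foxo3) by voom. Among them were Atf4 (284.5 to 316.4 TPM, 0.15) and Jun (117.4 to 119.1 TPM, 0.02). Genes for protein partners and turnover of the family had a median of 0.00 with 0 of 11 called by limma, 2 at an unadjusted p under 0.05 and 1 (Btrc) by voom, and included Ywhae (-0.09) and Ywhaz (0.00).

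Since Bax, Bbc3 and Pmaip1 are p53 targets, 15 other p53 target genes were set beside them. Of these 5 were called higher by limma, against 1.64% of all tested genes, and 0 lower, against 9.03%, while 12 were higher and 1 lower at an unadjusted p under 0.05. Their median log2 fold change was 0.66, and in 12 all KO samples lay above all WT samples, against 13.3% of tested genes. Trp53inp1, a p53 cofactor gene, rose from 28.7 ± 1.48 to 82.4 ± 5.37 TPM (1.49, adjusted p = 0.000126 by limma). Mdm2, which encodes the ligase that degrades p53, rose from 112.7 to 214.1 TPM (0.93, adjusted p = 0.00098), Cdkn1a, the cell cycle inhibitor gene p21, from 267.1 to 469.3 TPM (0.82, adjusted p = 0.000797), and Phlda3, which encodes an AKT inhibitor, from 233.3 to 383.0 TPM (0.71, adjusted p = 0.00136). Trp53 itself stood at 104.9 ± 5.38 TPM in WT and 120.7 ± 7.35 TPM in KO (0.20, adjusted p = 0.149). Cdkn1a and Trp53inp1 kept their calls whichever sample was left out, and without the filter on low expression only Trp53inp1 was called. Mdm2 lost its call without KO 3 (log2 fold change 0.94, adjusted p = 0.00556 by limma), and Phlda3 lost it without KO 3 (0.73, adjusted p = 0.00585) or KO 7 (0.64, adjusted p = 0.00553). The remaining called gene, Eda2r (0.66, adjusted p = 0.00249 by limma), lost its call without WT 5, WT 8, KO 7 or KO 10. It also lost it without a variance trend, and its log2 fold change was 0.604 to 0.739 over the omissions. For the BCL2 family members named here as p53 targets, which need not be all of them, the log2 fold changes were 0.89 for Bbc3, 0.45 for Bax and 0.14 for Pmaip1.

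**Figure D4:**
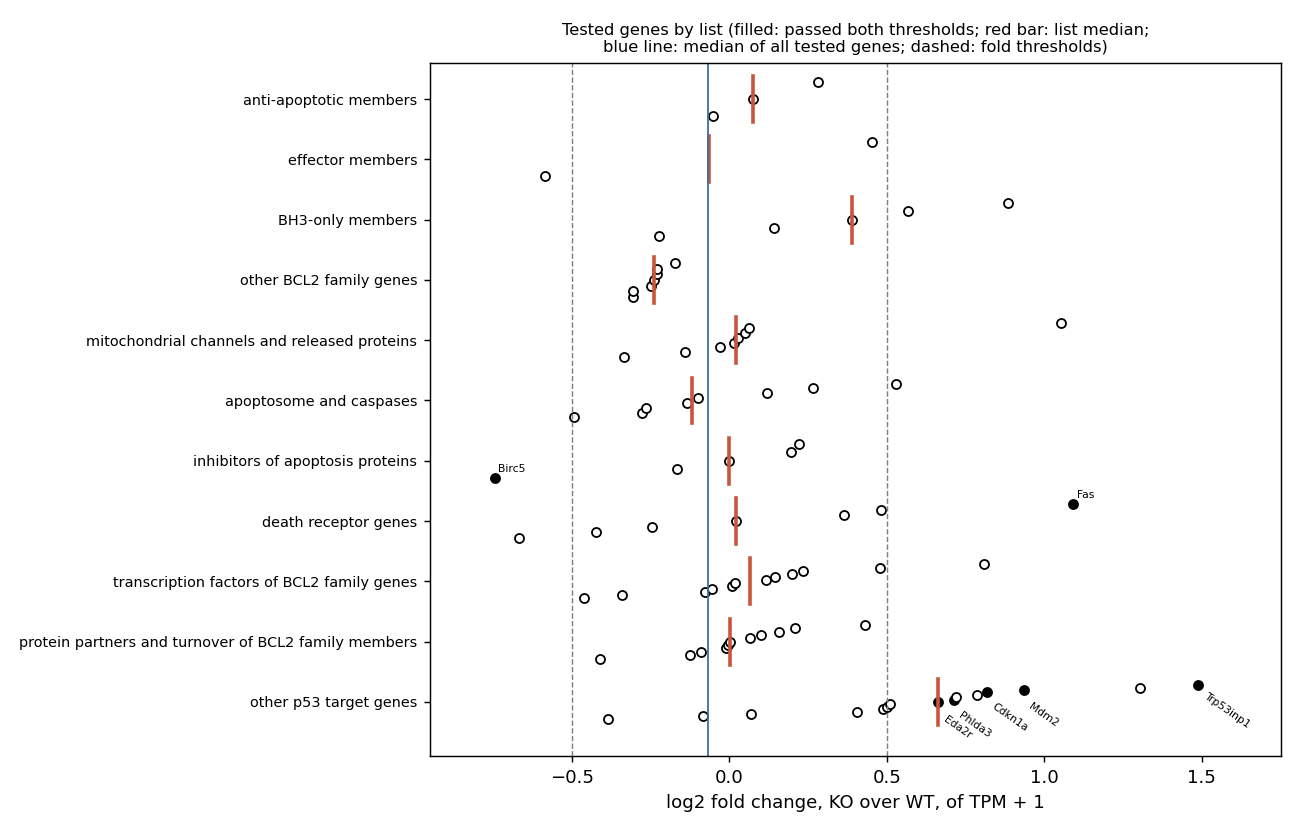
The log2 fold change, KO over WT, of TPM + 1 for each tested gene of the member groups and the other lists, with list medians as red bars and the median of all tested genes as a blue line. Filled points passed both thresholds, and they are Birc5, Fas and 5 of the other p53 target genes.

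The direction of each member was also read from the fits under other settings. The log2 fold change ranged from 0.67 to 1.00 for Bbc3, from 0.50 to 0.69 for Bid, from 0.40 to 0.54 for Bax, from 0.30 to 0.51 for Bcl2l11 and from -0.75 to -0.50 for Bak1, so that these 5 kept their direction in every fit made. Bcl2l1 (0.20 to 0.44) and Pmaip1 (0.02 to 0.37) kept their direction as well, with groups that overlapped. Bmf (-0.40 to -0.08) stayed under 0, also with overlapping groups. Since it passed the filter on its WT mean alone, where it was higher, its direction is not taken as held. Only Mcl1 (-0.13 to 0.04) and Bcl2 (-0.02 to 0.20) turned.

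**Figure D5:**
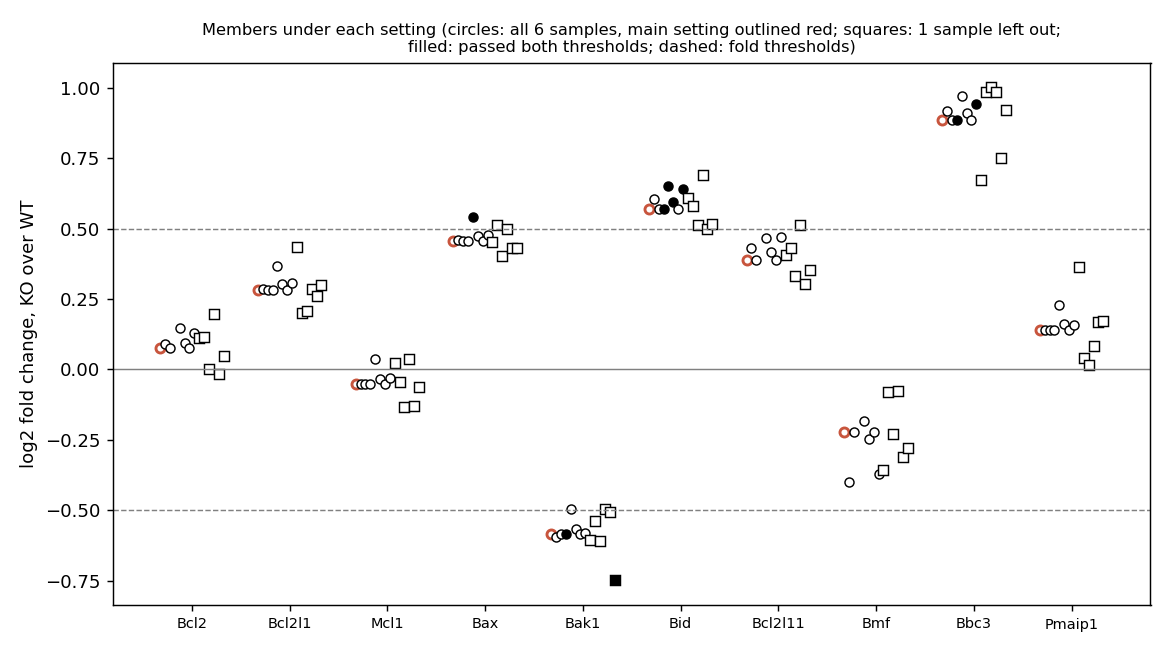
The log2 fold change of each member in every fit made, with circles for fits of all 6 samples (the reported fit outlined in red), squares for fits without 1 sample, and filled marks where both thresholds were passed. The points of Bax, Bid, Bcl2l11 and Bbc3 stay above 0 and those of Bak1 below it, whereas Mcl1 and Bcl2 straddle 0.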

How the data were processed

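RNA was sequenced from 3 WT and 3 KO samples of primary MEFs. The authors deposited 1 table of expression in TPM, made from reads aligned with STAR to mm10, with genes counted by a program not given in the sources used here. The submitters' processing notes also name Bowtie 0.12.2. The same table held the authors' log2 fold changes and adjusted p-values, which were not used. TPM was multiplied by merged exon length (GENCODE M21), and 100% of the 20034 to 20637 values checked per sample came out as whole reads at a tolerance of 0.05. These reads give depth only (17655495 to 27718259 per sample) and the input to voom.

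Groups were compared on log2(TPM + 1) by limma 3.58.1 under R 4.3.3, with a variance trend, 2 groups and no covariate, over 14799 genes with a group mean of at least 1 TPM. Fold changes on this scale understate those of low genes. Calls required a Benjamini-Hochberg adjusted p under 0.005 and a log2 fold change beyond 0.5 in size, after the study. The code was tested on simulated data. The members, the lists and the filter were chosen with earlier results of these data known. Named are Kansl1, all members and, of each list, up to 4 called genes with the largest fold change or, with fewer than 2 called, the 2 with the highest mean TPM. A gene that this rule names is not reported here. Genes named outside this rule are said to be so, were called by voom, or stand beside a member as its antisense partner or its regulator (Trp53), and these too were chosen after values were seen. Alternatives were a pseudocount of 0.1, no filter, a filter at 10 TPM, median-of-ratios scaling, no variance trend, TPM rescaled after dropping the 2 most abundant RNAs, voom, an adjusted p under 0.05, and leaving out each sample. Promoters came from RefSeq (GRCm38.p6), with 9 of 10 members matched.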

Additional observations from a re-analysis of the deposited data

How the results depend on the processing

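No paired analysis was possible because no replicate number occurs in both groups. At the thresholds of the study, 127 log2 fold changes of members were computed over the alternatives, of which 114 kept their direction and side of the thresholds, 9 passed them in addition and 4 reversed. The reversals were Mcl1 under median-of-ratios scaling (0.036), without WT 4 (0.022) and without KO 3 (0.037), and Bcl2 without KO 7 (-0.018). Over the omissions of 1 sample Mcl1 ranged from -0.134 to 0.037 and Bcl2 from -0.018 to 0.198. That scaling moved the median of all tested genes from -0.07 to 0.01. The causes of the shifts below were not tested.

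Over all tested genes 1579 were called, 242 higher and 1337 lower. Without a filter there were 341 (55 higher, 286 lower), with voom 2585 (433 higher, 2152 lower), and at an adjusted p under 0.05 there were 3147 (694 higher, 2453 lower). Median-of-ratios scaling gave 442 higher. Leaving out each sample gave 758 to 1081 genes, 84 to 252 higher and 617 to 938 lower. Of the members 0 were called, against 3 with the filter at 10 TPM and at an adjusted p under 0.05, 2 with median-of-ratios scaling and with voom, 1 without the 2 most abundant RNAs, and 0 to 1 when a sample was left out. Of the other apoptosis genes 2 were called, against 0 without a filter, 4 with the filter at 10 TPM, 7 with median-of-ratios scaling and with voom, 5 without the 2 most abundant RNAs, 1 without a variance trend, 6 at an adjusted p under 0.05, and 0 to 2 when a sample was left out. Of the other p53 target genes 5 were called, against 1 without a filter, 10 with the filter at 10 TPM, with voom and at an adjusted p under 0.05, 8 with median-of-ratios scaling, and 3 to 8 when a sample was left out.

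Bmf, with 22 to 80 reads per sample, had the largest standard error of the members (0.23 on the log2 scale). The 2 most abundant RNAs took different shares of TPM in different samples, which scales every other gene of a sample together. The largest of them, Gm23935, held 15.5%, 18.3% and 24.3% in WT and 25.6%, 15.5% and 19.9% in KO. Ratios within a sample are free of this.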
